A study of Saccharomyces cerevisiae with 8 samples.

Results

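The proteasome genes described here are 35 genes of the yeast Saccharomyces cerevisiae, taken by their standard names: 14 subunits of the 20S core particle, 19 subunits of the 19S cap, the transcription factor gene RPN4 and the core maturation gene UMP1. Each was found on the arrays by its systematic name. Every member had 1 probe, and all 35 were well above background on all 8 arrays and so entered the comparison, out of 5816 genes tested. RNA came from BY4743, a diploid laboratory strain, after 3 h at 30 °C in rich YPD medium with shaking at 130 rpm. The 4 control arrays had 0 g/l isopropanol and the 4 isopropanol arrays 40 g/l, a dose that the sample descriptions write as mg/l and the other labels as g/l. The series title speaks of tolerance to isopropanol, and the question here is which proteasome transcripts stood at other levels in treated than in untreated cells.

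The proteasome is the protease that destroys proteins tagged with ubiquitin. Its barrel-shaped core has outer rings of alpha subunits, which gate the entrance, and inner rings of beta subunits, of which Pre3, Pup1 and Pre2 carry the active sites. The cap binds ubiquitin chains, removes them, and feeds the substrate into the core with a ring of ATPases, Rpt1 to Rpt6. In yeast the transcription factor Rpn4 activates the subunit genes together, and it is itself a short-lived substrate of the proteasome.

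Each value below is the log2 signal of a gene relative to the 75th percentile of its array, so that 0 is the signal at that percentile. A change is the isopropanol mean minus the control mean on this scale, and a gene passed where its adjusted p was under 0.05 (limma, Benjamini-Hochberg over all 5816 genes). The 75th percentile of signal was 1312 to 1678 intensity units on the control arrays and 1802 to 2449 on the isopropanol arrays. Between 92.3% and 95.9% of yeast spots were well above background. The labels tie no array to a culture of its own, so a p-value reflects the scatter of these 8 arrays, part of which may be technical. Slide 1 held the control arrays and slide 2 the isopropanol arrays. The isopropanol arrays shared a scan date that no control array had, so slide, scan and treatment cannot be told apart. Less RNA of a gene per cell and fewer cells that express it cannot be told apart either. Control replicate 3 was scanned apart from the other control arrays, and on isopropanol replicate 1 the spike-in RNAs stood at -2.62 (log2) relative to the 75th percentile. On isopropanol replicates 2 to 4 they stood at -1.10 to -0.88, and on the control arrays at -0.47 to 0.11. LEU2 and URA3, which BY4743 lacks, were above background on 0 of 4 arrays of each group. Of 8 genes that haploid cells express and a diploid represses, 6 entered the test and 5 of them were higher with isopropanol on this scale (48.1% of all genes were). With normexp background correction 0 of the 6 were higher (18.2% of all genes), and with quantile normalization 4 were higher and 1 lower (35.2% and 38.4%). The summed signal of the 8 was 0.460 to 0.482 times the 75th percentile on the control arrays and 0.645 to 0.673 times on the isopropanol arrays, MFA2 was above background on 0 arrays, and the part of these transcripts in the results was not tested.

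Relative to each array's overall signal, RPN4 rose while the subunit genes stayed close to their control levels. RPN4 rose 2.45-fold, whereas 31 of 33 subunit genes changed by less than 1.2-fold and 0 reached 2-fold on the scale defined above. Among all genes tested 41.0% changed by less than 1.2-fold. The changes of the 33 subunits had a median of 0.02 and an interquartile range of 0.15, against a median of 0.11 and an interquartile range of 0.64 over all genes. Of the 35 members 10 were higher and 5 lower, and 20 did not pass, against backgrounds of 48.1% higher and 29.7% lower among all genes (77.8% in either direction). Without isopropanol replicate 1 the members called higher were 5, and without control replicate 2 they were 6. The groups did not overlap for 13 of 35 members, against 73.3% of all genes. Both counts of members lay below the shares of all genes on this scale, which describes the list and was not tested. After quantile normalization 21 members were higher and 1 lower, against 35.2% and 38.4% of all genes. After median centring 2 were higher and 19 lower, against 34.5% and 42.1%. The counts of subunits by size of change depend on the scale. After median centring the log2 changes of the 33 subunits ran from -0.51 to 0.27 (median -0.14). With arrays scaled on the spike-in RNAs they ran from 0.80 to 1.58 (median 1.18). On that spike-in scale RPN4 had a log2 change of 2.45, and the median of all genes was 1.27.

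**Figure D1:**
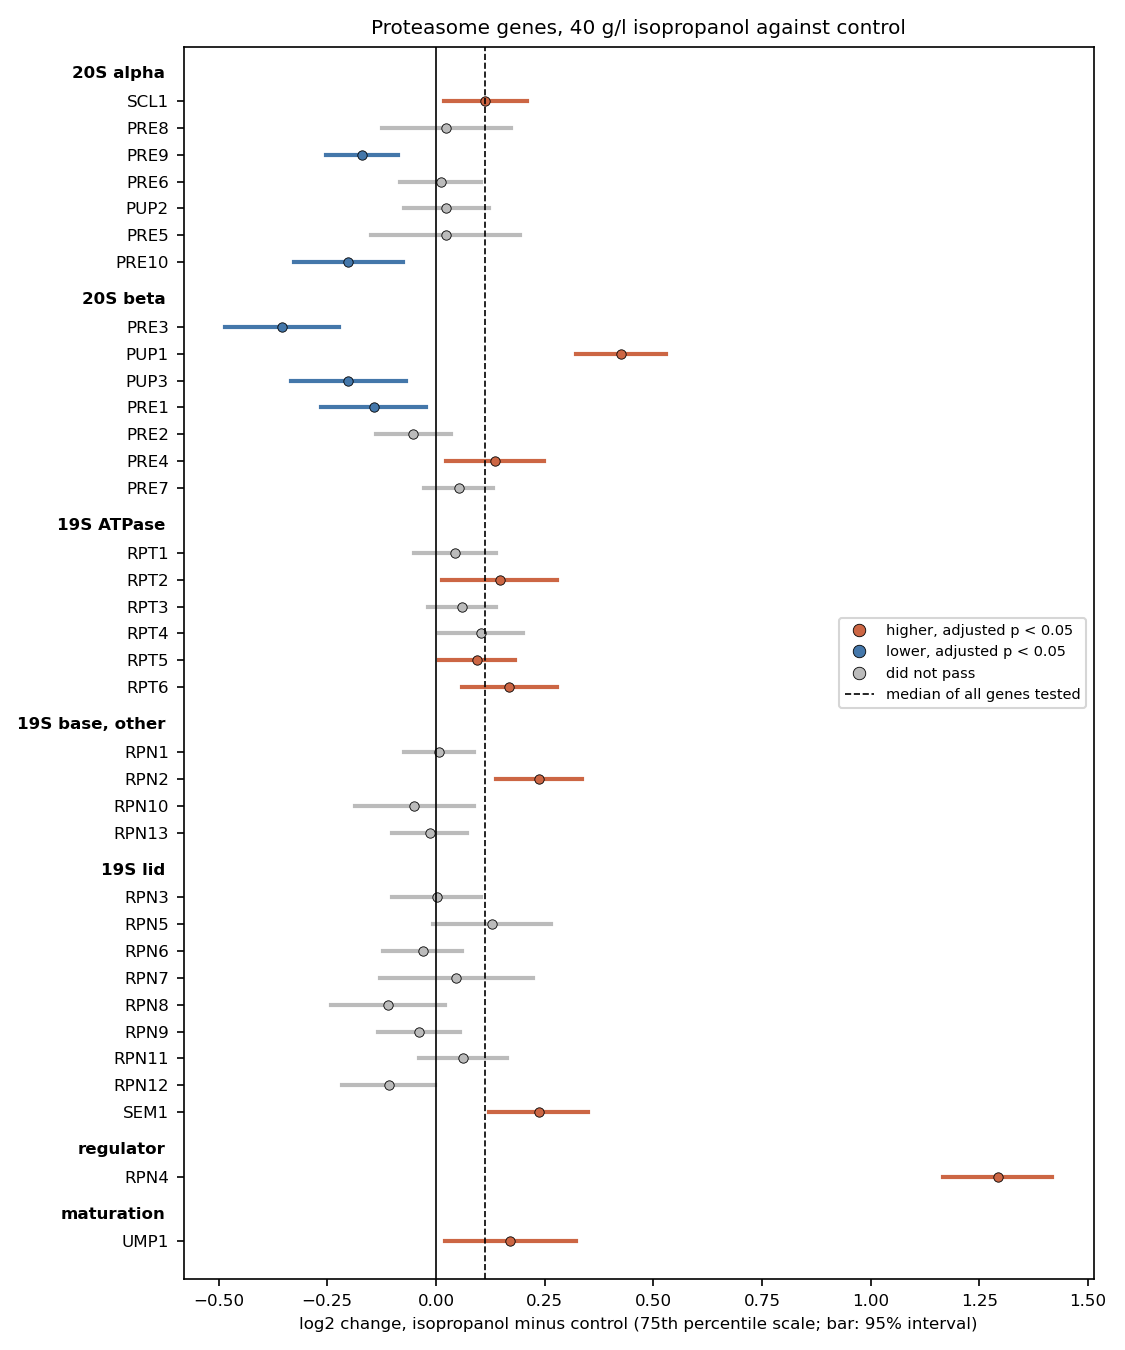
Log2 change of each of the 35 genes (isopropanol minus control, 75th percentile scale, 4 arrays per group), with limma 95% intervals as bars and subunits grouped by their place in the particle. RPN4 stands alone at 1.29, and the 33 subunits lie between -0.35 (PRE3) and 0.43 (PUP1).

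RPN4 (YDL020C), which encodes the activator of the proteasome genes, had log2 values of -0.40, -0.45, -0.36 and -0.57 on control replicates 1 to 4 and of 0.75, 0.83, 0.88 and 0.93 on isopropanol replicates 1 to 4. The groups were apart by a gap wider than the range of either. The change was 1.29 (SE 0.06, limma adjusted p = 1.62e-08), at percentile 95.6 of the changes of all genes tested. It stayed between 1.13 and 1.32 under quantile normalization, median centring and normexp background correction, and between 1.25 and 1.32 when each array was left out in turn. On the spike-in scale it was 2.45, and 2.08 without isopropanol replicate 1, where the medians of all genes were 1.27 and 0.86.

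UMP1 (YBR173C) encodes the chaperone that the maturing core digests as it is completed. Its values were 0.28, 0.33, 0.33 and 0.36 on the control arrays and 0.59, 0.63, 0.45 and 0.31 on the isopropanol arrays. Isopropanol replicate 4 lay within the control range while the other 3 lay above it. The change of 0.17 (SE 0.07, limma adjusted p = 0.0397) passed, but of the 8 fits that left out an array it passed only in that without isopropanol replicate 4 (adjusted p up to 0.109). It stood at 0.01 after median centring.

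**Figure D2:**
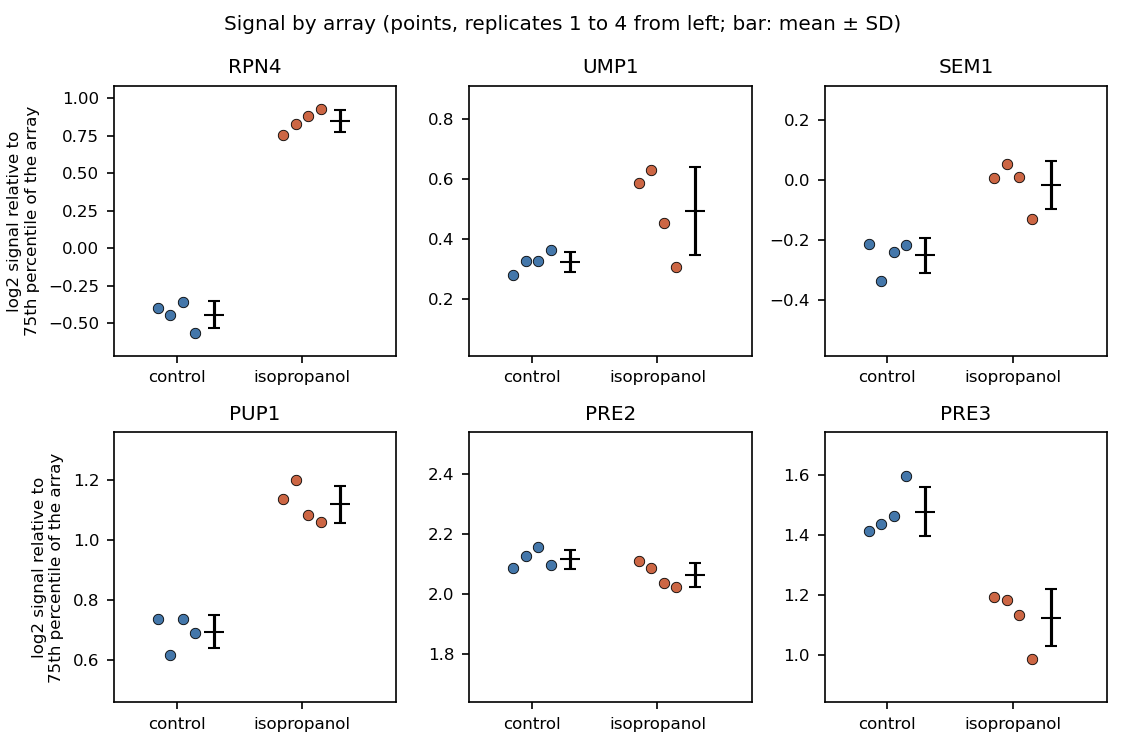
Log2 signal relative to the 75th percentile on each array for RPN4, UMP1, SEM1 and the catalytic subunit genes PUP1, PRE2 and PRE3 (points: replicates 1 to 4 from left, bars: mean ± SD, n = 4; the RPN4 axis spans a wider range). The groups are apart for RPN4, PUP1, SEM1 and PRE3, and overlap for UMP1 and PRE2.

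The catalytic subunits of the core went apart. PUP1 (YOR157C), for the subunit with trypsin-like activity, had values of 0.73, 0.62, 0.73 and 0.69 on the control arrays and of 1.14, 1.20, 1.08 and 1.06 on the isopropanol arrays. It rose 1.34-fold (log2 0.43, SE 0.05, limma adjusted p = 1.27e-05), with its lowest isopropanol array well above its highest control array. PRE3 (YJL001W), for the subunit with caspase-like activity, had values of 1.41, 1.44, 1.47 and 1.60 on the control arrays and of 1.19, 1.18, 1.13 and 0.99 on the isopropanol arrays. It fell 1.28-fold (log2 -0.35, SE 0.06, limma adjusted p = 0.000289), and its groups did not overlap. PRE2 (YPR103W), for the subunit with chymotrypsin-like activity, had values of 2.09, 2.13, 2.16 and 2.10 without isopropanol and of 2.11, 2.09, 2.04 and 2.02 with it. Its groups overlapped and its change of -0.05 (95% interval -0.14 to 0.03) did not pass on this scale. PRE2 was higher after quantile normalization (0.13, limma adjusted p = 0.00961) and lower after median centring (-0.21, limma adjusted p = 0.000586).

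Ratios between genes on the same array do not depend on an array's scaling factor. The PRE3 to PUP1 ratio fell by 0.78 (log2, SE 0.06) and the PRE3 to PRE2 ratio by 0.30 (SE 0.06), while the PUP1 to PRE2 ratio rose by 0.48 (SE 0.04). The groups did not overlap for any of these 3 ratios. The opposite moves of PUP1 and PRE3 were known when the pairs were chosen, so the ratios are a description and no p is given. A ratio does not show which of its genes stayed constant.

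The other beta subunits, which shape the inner rings but carry no active site, also went both ways. PUP3 (YER094C) had values of 2.36, 2.37, 2.51 and 2.52 on the control arrays and of 2.24, 2.34, 2.27 and 2.11 on the isopropanol arrays, and fell by 0.20 (SE 0.06, limma adjusted p = 0.00995). Its groups came close without overlap, and after quantile normalization its change was -0.05 and did not pass. PRE1 (YER012W) fell by 0.14 (SE 0.05, adjusted p = 0.0329) and PRE4 (YFR050C) rose by 0.14 (SE 0.05, adjusted p = 0.0296) in limma, both with overlapping groups. The PRE1 call was lost without control replicate 4 or isopropanol replicate 1, 3 or 4 (adjusted p up to 0.0815), and the PRE4 call without control replicate 1 or 2 or isopropanol replicate 1 or 4 (up to 0.0831). PRE7 (YBL041W) had a change of 0.05 that did not pass, although its isopropanol arrays all lay above its control arrays. Of the 7 beta genes 2 rose, 3 fell and 2 did not pass on this scale (48.1% of all genes were higher and 29.7% lower). After quantile normalization 3 were higher and 1 lower (35.2% and 38.4% of all genes). After median centring 1 was higher and 5 lower (34.5% and 42.1%).

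In the alpha ring 2 genes fell, 1 rose and 4 did not pass (29.7% of all genes were lower and 48.1% higher). PRE10 (YOR362C) had values of 1.87, 1.93, 1.85 and 1.92 on the control arrays and of 1.70, 1.76, 1.76 and 1.53 on the isopropanol arrays, and fell by 0.20 (SE 0.06, limma adjusted p = 0.00758). PRE9 (YGR135W), the only alpha subunit gene that yeast can live without, had values of 2.51, 2.54, 2.55 and 2.60 on the control arrays and of 2.36, 2.40, 2.39 and 2.36 on the isopropanol arrays. It fell by 0.17 (SE 0.04, limma adjusted p = 0.00174), and for both genes the groups did not overlap. SCL1 (YGL011C) rose by 0.11 (SE 0.04, adjusted p = 0.0323), also without overlap, which equals the median change of all genes on this scale. It did not pass without control replicate 1, 2 or 3 or isopropanol replicate 1 or 2 (adjusted p up to 0.0901). PRE5, PRE6, PRE8 and PUP2 had changes of 0.01 to 0.02, and the widest of their 95% intervals ran from -0.15 to 0.19 (PRE5). After quantile normalization PRE9 (-0.02) and PRE10 (-0.05) did not pass. PRE6 and PUP2 were higher after quantile normalization (0.14 and 0.19) and lower after median centring (-0.15 and -0.14). In the ring 3 genes were higher and 0 lower after quantile normalization (35.2% and 38.4% of all genes). The counts were 0 and 4 after median centring (34.5% and 42.1%).

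In the cap, 5 of 19 genes rose, 0 fell and 14 did not pass on this scale (48.1% and 29.7% of all genes were higher and lower). After median centring 0 were higher and 10 lower (34.5% and 42.1% of all genes), and after quantile normalization 13 were higher and 0 lower (35.2% and 38.4%). The ATPase genes, which encode the unfolding ring, had changes of 0.04 to 0.17, and RPT2 (0.15), RPT5 (0.09) and RPT6 (0.17) passed. RPT6 (YGL048C) had values of 0.13, 0.21, 0.20 and 0.03 on the control arrays and of 0.28, 0.33, 0.36 and 0.28 on the isopropanol arrays, without overlap (SE 0.05, limma adjusted p = 0.00885). RPT4 had a change of 0.10 (limma adjusted p = 0.051), RPT3 of 0.06 and RPT1 of 0.04, none of which passed. RPT4 did pass as higher without control replicate 1 or isopropanol replicate 2 or 4. The RPT2 call was lost without control replicate 1, 2 or 4 or isopropanol replicate 1, 3 or 4 (adjusted p up to 0.0997). The RPT5 call was lost without control replicate 3 or 4 or isopropanol replicate 1, 2 or 3 (up to 0.114). After median centring RPT6 had a change of 0.01 and did not pass.

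Around that ring, RPN2 (YIL075C), for the large scaffold subunit that holds the ubiquitin receptor Rpn13, had values of 0.50, 0.61, 0.59 and 0.58 on the control arrays and of 0.81, 0.79, 0.74 and 0.88 on the isopropanol arrays. The groups did not overlap, and the rise was 1.18-fold (log2 0.24, SE 0.04, limma adjusted p = 0.000616). RPN1, for the other large scaffold, had a change of 0.01 (95% interval -0.07 to 0.09), and the ubiquitin receptor genes RPN10 and RPN13 had changes of -0.05 and -0.01. None of these 3 passed on this scale. All 3 were lower after median centring (RPN1 -0.15, RPN10 -0.21 and RPN13 -0.17), and RPN1 was higher after quantile normalization (0.15). After median centring RPN2 had a change of 0.08 and did not pass.

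Of the 9 lid genes 1 passed on this scale, against 77.8% of all genes. After quantile normalization 5 were higher and 0 lower (35.2% and 38.4% of all genes). After median centring 0 were higher and 5 lower (34.5% and 42.1%). SEM1 (YDR363W-A), for a small lid subunit also found in other complexes, had values of -0.21, -0.34, -0.24 and -0.22 on the control arrays and of 0.00, 0.05, 0.01 and -0.13 on the isopropanol arrays. The groups did not overlap, and it rose 1.18-fold (log2 0.24, SE 0.05, limma adjusted p = 0.00163). RPN11, for the enzyme that cuts ubiquitin chains off the substrate, had a change of 0.06 (95% interval -0.04 to 0.16), which did not pass. RPN8, the partner of Rpn11, and RPN12 had the lowest changes of the lid, at -0.11 each, and RPN5 the next highest after SEM1, at 0.13. RPN3, RPN6, RPN7 and RPN9 had changes of 0.00, -0.03, 0.05 and -0.04. RPN7 varied most among the isopropanol arrays of these 4 genes, from -0.13 on replicate 4 to 0.28 on replicate 1. After median centring SEM1 had a change of 0.08 and did not pass.

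Core and cap were set against each other by the mean log2 value of their genes on each array, for which no p is given. The core mean was 1.44, 1.47, 1.48 and 1.53 on control replicates 1 to 4 and 1.50, 1.50, 1.45 and 1.39 on isopropanol replicates 1 to 4. The groups overlapped, and the difference of their means was -0.02. The cap mean was 0.98, 0.98, 0.97 and 0.98 on the control arrays and 1.04, 1.03, 1.04 and 1.01 on the isopropanol arrays, all of them above the control arrays, with a difference of 0.05. After median centring both lay below the control, the cap by -0.11 and the core by -0.18, and after quantile normalization both lay above it, the cap by 0.15 and the core by 0.11. Within the cap, the ATPase ring shifted by 0.10 without overlap (by -0.06 with overlap after median centring) and the lid by 0.02 with overlap.

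The core mean less the cap mean was 0.46, 0.49, 0.51 and 0.54 on the control arrays and 0.45, 0.47, 0.41 and 0.38 on the isopropanol arrays. It was lower with isopropanol by 0.07 on average (0.50 ± 0.04 against 0.43 ± 0.05, SD, n = 4), but isopropanol replicate 2 lay within the control range. Without 1 array at a time the difference ran from -0.09 to -0.06. Median changes were 0.02 for the core and 0.05 for the cap, and the core held both extremes, with a range of -0.35 to 0.43 against -0.11 to 0.24 for the cap. Isopropanol replicate 4 was the lowest of its group for 9 of 14 core and 9 of 19 cap genes, and control replicate 1 was the lowest of its group for 8 of 14 core genes.

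**Figure D3:**
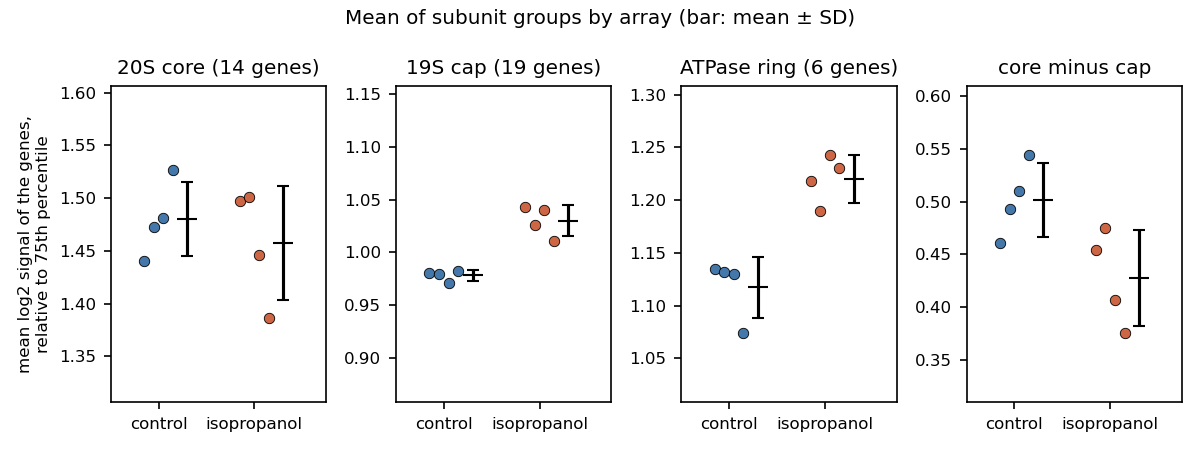
Mean log2 signal over the core genes, the cap genes and the ATPase genes, and the core mean less the cap mean, on each array (points: replicates 1 to 4 from left, bars: mean ± SD, n = 4; all axes span the same range). The cap and ATPase means with isopropanol lie above those of the control, whereas the core means and the core minus cap differences overlap. The cap lies below the control after median centring.

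Calls on the subunits turned on how the arrays were scaled. With quantile normalization 21 of the 35 members were higher and 1 lower, against 35.2% and 38.4% of all genes. With median centring 2 were higher and 19 lower, against 34.5% and 42.1%. With normexp, another background correction, 6 were higher and 2 lower, against 18.2% and 24.0%. With arrays scaled on 6 spike-in probes 34 were higher and 0 lower, against 78.1% and 0.327% of all genes. PRE3 did not pass there (log2 0.80, limma adjusted p = 0.0786). On that scale every member had the same SE, 0.44, and 0.19 without isopropanol replicate 1. The spike-in calls therefore rest on a spread shared by the genes, not on the scatter of each gene.

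RPN4 and PUP1 were higher and PRE3 lower under each of the first 4 scalings, that is the 75th percentile, quantile, median and normexp, and no other member that changed kept its call under all 4. The median of the 33 subunits was below that of all genes on the 75th percentile scale (0.02 against 0.11) and after median centring (-0.14 against -0.05), and above it after quantile normalization (0.15 against -0.02) and with normexp (0.06 against -0.08). The subunit probes were bright, with 27 of 33 in the upper 2 deciles of mean signal. Over all genes in those deciles the median change on the 75th percentile scale was -0.15 and -0.28, against 0.55 in the lowest decile. The core genes were on average brighter than the cap genes (control means of 1.48 and 0.98). The part of signal level in the subunits' changes, and in the core minus cap difference, was not tested.

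**Figure D4:**
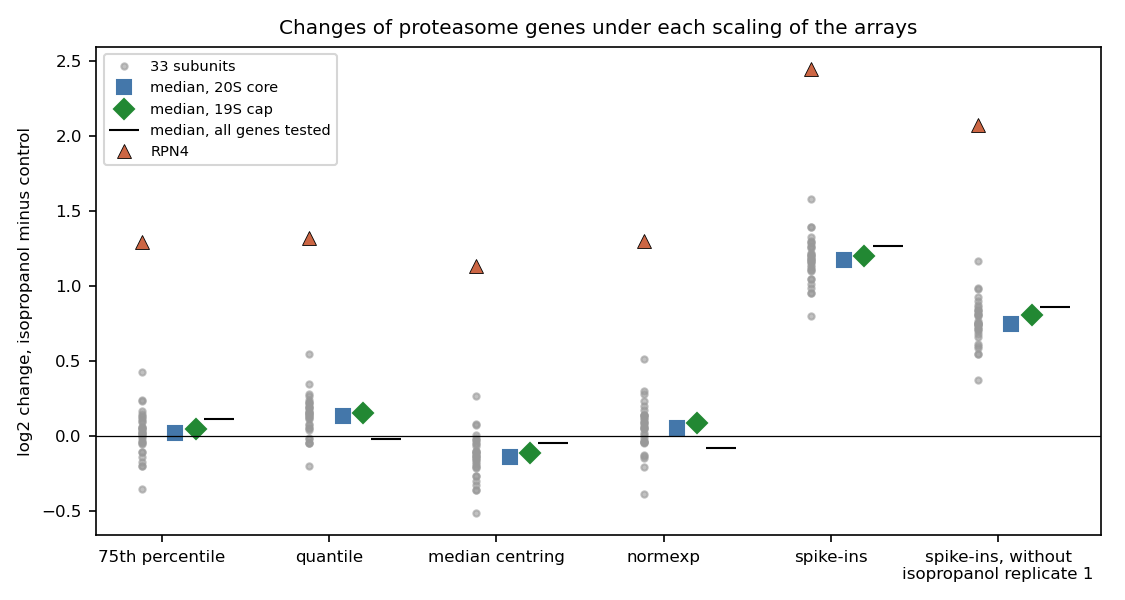
Log2 change of the 33 subunits (grey points), RPN4 (triangles), and the medians of core, cap and all genes tested, under 6 scalings of the arrays. RPN4 stays above every subunit under each scaling, while the core and cap medians lie between -0.14 and 0.15 in the first 4 and shift with all genes on the spike-in scale.

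Other genes of the pathway were taken from 4 lists. The genes for ubiquitin receptors that deliver substrates and for Cdc48, the segregase that pulls ubiquitinated proteins out of complexes, with its partners, were higher in 8 of 8 cases (48.1% of all genes), with a median change of 0.24 and no overlap of groups in any (73.3% of all genes). NPL4 (YBR170C) and UFD1 (YGR048W), for the pair of adaptors that bring ubiquitinated proteins to Cdc48, rose 1.51-fold (limma adjusted p = 1.93e-07) and 1.46-fold (1.84e-06). UFD2 (YDL190C), for an enzyme that lengthens ubiquitin chains, rose 1.23-fold (limma adjusted p = 0.000361). After median centring 4 of the 8 were higher (34.5% of all genes) and 0 lower. With normexp 5 were higher (18.2% of all genes), and NPL4 (0.19), UFD2 (0.15) and DSK2 (0.13) did not pass. DSK2, for a shuttle receptor, rose by 0.14 on the 75th percentile scale, a call lost without control replicate 3 or 4 or isopropanol replicate 1 or 2 (limma adjusted p up to 0.0622).

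Of 6 genes for proteasome-associated proteins and other activators, 5 rose and 0 fell (median 0.31), beside 48.1% and 29.7% of all genes. SPG5 (YMR191W), for a protein needed by the proteasome in stationary phase, rose 1.49-fold (limma adjusted p = 3.88e-07). HUL5 (YGL141W), for a ubiquitin ligase bound to the proteasome, rose 1.43-fold (1.23e-06 adjusted, limma). ECM29 (YHL030W), for a protein that holds core and cap together, rose 1.33-fold (1.16e-05 adjusted, limma). All 3 were also higher after quantile normalization, median centring and normexp. Of the 6 genes, 4 were higher after quantile normalization (35.2% of all genes), 3 after median centring (34.5%) and 4 with normexp (18.2%). In each of these scalings 0 were lower (38.4%, 42.1% and 24.0% of all genes).

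Of 8 assembly chaperone genes 3 rose, 2 fell and 3 did not pass (median 0.02), beside 48.1% higher and 29.7% lower among all genes. None of the 3 rises held under another of the 4 scalings. POC4 (YPL144W) and IRC25 (YLR021W), whose products pair up to help build the alpha ring, fell by 0.20 each (limma adjusted p = 0.00839 and 0.0096), and did so under all 4 scalings. HSM3 (YBR272C), for a chaperone of the ATPase ring, rose by 0.16 (limma adjusted p = 0.0239) but stood below 0, without passing, under the other 3 scalings, and was lost without control replicate 2 or 3 or isopropanol replicate 4 (adjusted p up to 0.0685). NAS2 and RPN14, for further chaperones of the ATPase ring, rose by 0.15 and 0.13 but fell by 0.18 and 0.17 after quantile normalization. NAS2 was also lost without control replicate 2 or 3 or isopropanol replicate 1, 2 or 3 (limma adjusted p up to 0.0842). Of the 8 genes, 1 was higher and 4 lower after quantile normalization (35.2% and 38.4% of all genes). The counts were 0 and 4 after median centring (34.5% and 42.1%), and 0 and 2 with normexp (18.2% and 24.0%).

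Of 6 genes that act on RPN4 or its product 5 rose and 0 fell (median 0.35, beside 48.1% higher among all genes), and with normexp 3 were higher (median 0.21, beside 18.2%). PDR3 (YBL005W), for a drug resistance transcription factor that activates RPN4, had values of -3.68, -3.62, -3.56 and -3.80 on the control arrays and of -2.78, -2.90, -2.94 and -2.75 on the isopropanol arrays, without overlap. It rose 1.77-fold (log2 0.82, SE 0.06, limma adjusted p = 8.61e-07), but not with normexp (0.12, adjusted p = 0.718). HSF1 (YGL073W), for the heat shock transcription factor, rose 1.31-fold (limma adjusted p = 0.000139), and UBR2 (YLR024C), for the ubiquitin ligase that marks Rpn4 for destruction, rose 1.39-fold (9.29e-06 adjusted, limma). Both were higher under all 4 scalings. These 4 lists were chosen with results of the data known, and the counts describe them with no test of the list.

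**Figure D5:**
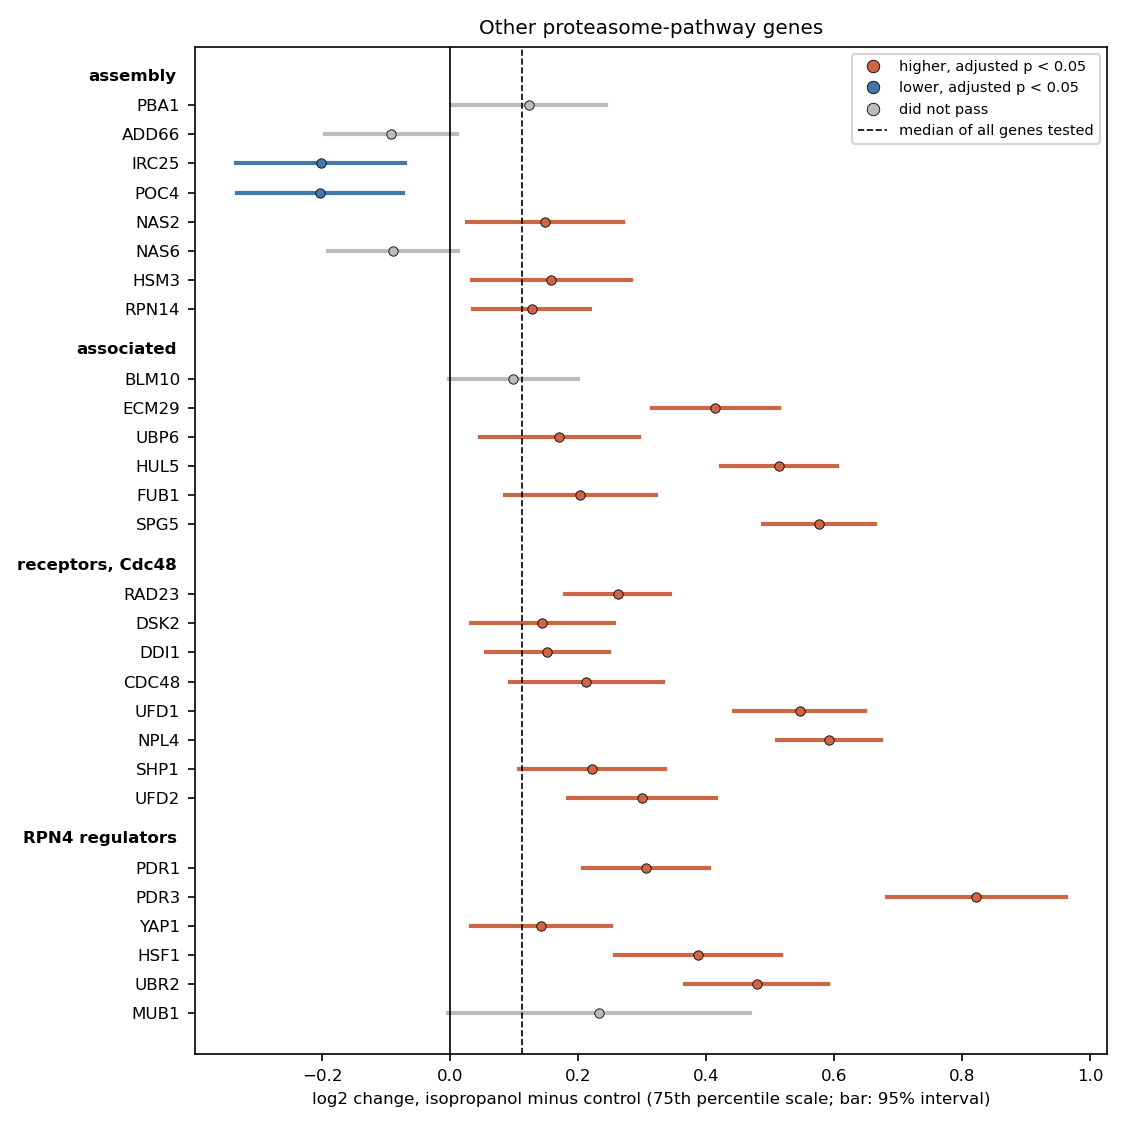
Log2 change (isopropanol minus control, 75th percentile scale, 4 arrays per group) with limma 95% intervals for 28 further genes in 4 lists: assembly chaperones, proteasome-associated proteins, ubiquitin receptors with Cdc48 partners, and regulators of RPN4. The 8 receptor and Cdc48 genes all lie above 0, whereas the assembly genes lie on both sides, between -0.20 and 0.16.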

How the data were processed

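Total RNA was labelled with Cyanine 3 and each sample hybridised to a 1-colour Agilent array of its own, per the labels' protocols. Groups and replicate numbers come from sample titles. The deposited scanner files hold a processed signal, an intensity, from Feature Extraction 9.5.3.1 per the file headers, while version 9 stands in the submitters' processing notes. The settings of that program are not given in the sources used here. The deposited series matrix holds log2 values, whose columns followed the scanner values (rank correlation 0.997 to 1, column medians -1.52 to -1.32), in the same direction and without centring of genes.

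From the log2 of the processed signal the array's 75th percentile over yeast spots was subtracted. Control spots and 0 to 21 outlier spots per array were left out, and the 2 spots of a probe averaged. Probes entered the test where all 4 arrays of the control or of the isopropanol group had them well above background, and the brightest probe stood for a gene. Symbols came from a RefSeq gene table (assembly R64) through locus tags. The probe annotation is of build sacCer1, so no coordinates are given. Sequences were not analysed here, nor was the planned promoter motif search.

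The test was limma 3.58.1 (lmFit, eBayes, R 4.3.3) at an adjusted p of 0.05, and the fit was tested on simulated data. The number of arrays, 4 per group, limits the precision. Alternatives were other scalings, background correction and filters, the series matrix, a replicate block and arrays left out. Normexp (offset 50) used the median spot signal, since the files hold no mean signal. Members, lists and tests were chosen with earlier results of these data known. Array values are given for the members among the 10 largest changes that passed, the 3 catalytic genes, RPN4, UMP1 and SEM1, and, chosen after its values were seen, PDR3. Up to 3 genes of each other list were named, those that passed with the largest change. NAS2, RPN14 and DSK2 were added after their values were seen.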

Additional observations from a re-analysis of the deposited data

Results flagged for a closer look

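Among the 35 genes and the core minus cap difference, 72 groups of 4 arrays were examined for an array far from the other 3, which chance alone gives in about 1 of 20 groups, and 4 had such an array. RPN6 had it in both groups. On control replicate 2 it stood at 2.33 against 2.25 to 2.26 on the other control arrays (gap of 0.911 of the range), and on isopropanol replicate 4 at 2.17 against 2.26 to 2.27 (0.963). RPT3 stood at 1.69 on control replicate 2 against 1.65 on the others (0.968). PRE5 stood at 2.25 on isopropanol replicate 4 against 2.43 to 2.46 (0.853). None of these 3 genes passed the test, nor did any of them when a single array was left out.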

How the results depend on the processing

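The number of arrays, and slide and scan that cannot be told apart from treatment, limit all comparisons. The replicate block left 7 members higher and 4 lower, with 4397 of all genes changed. Same-numbered arrays of the groups deviated together with correlations of -0.162 to 0.0407, and 0 of 4 correlated best with their own number. With 4 arrays per group this cannot decide whether same-numbered arrays share more than a number. Leaving out each array gave 5 to 10 members higher and 4 to 6 lower, 4357 to 4546 genes changed, medians of -0.02 to 0.03 (core) and 0.033 to 0.058 (cap) and core minus cap of -0.09 to -0.06. Members higher were 5 without isopropanol replicate 1 and 6 without control replicate 2. Of 15 members that passed, 9 passed in all 8 such fits, and SCL1, PRE1, PRE4, RPT2, RPT5 and UMP1 did not.

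Members higher numbered 6 (normexp), 21 (quantile), 2 (median centring), 34 (spike-ins), 34 (spike-ins without isopropanol replicate 1) and 5 (both control replicate 3 and isopropanol replicate 1 left out). Members lower numbered 2, 1, 19, 0 and 0 in the first 5 of these. With normexp 2456 of all genes changed. The core median was 0.14 (quantile), -0.14 (median centring), 1.17 and 0.75 (spike-ins with and without isopropanol replicate 1). The cap median was 0.15, -0.11, 1.20 and 0.81, and 0.086 with normexp. The cause of these moves was not tested. Core minus cap was between -0.09 and -0.04 under every alternative run. The series matrix and the filters on dim probes moved no count of members by over 1.5 times.

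Among the genes named in the text, signs turned after median centring for SCL1 (-0.046), PRE6 (-0.15), PUP2 (-0.14), PRE4 (-0.024), PRE7 (-0.11), RPT1 (-0.11), RPT2 (-0.013), RPT3 (-0.10), RPT5 (-0.064), RPN1 (-0.15), RPN3 (-0.16), HSM3 (-0.0014), NAS2 (-0.011), RPN14 (-0.032) and DSK2 (-0.015), after quantile normalization for PRE2 (0.13), RPN6 (0.13), RPN9 (0.12), HSM3 (-0.046), NAS2 (-0.18) and RPN14 (-0.17), and with normexp for HSM3 (-0.12), NAS2 (-0.19) and RPN14 (-0.23). On the spike-in scale, with all arrays and without isopropanol replicate 1, signs turned for PRE9 (0.99 and 0.59), PRE10 (0.96 and 0.55), PRE3 (0.80 and 0.37), PUP3 (0.95 and 0.55), PRE1 (1.01 and 0.60), PRE2 (1.10 and 0.68), RPN10 (1.11 and 0.70), RPN13 (1.14 and 0.72), RPN6 (1.13 and 0.71), RPN8 (1.05 and 0.66), RPN9 (1.12 and 0.72), RPN12 (1.05 and 0.61), POC4 (0.95 and 0.55) and IRC25 (0.95 and 0.56). A further 29 sign changes of named genes passed in neither fit. The other genes of the 4 lists are not covered here.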
